A study of Mus musculus with 6 samples.

Results

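The loci described here are 270 transcript models at 267 separate loci on chromosomes 1 to 19 of the mouse, out of 7959 models in all and 7702 on autosomes. A model belonged to them when its first base lay within 1.1 Mb of the recorded length of its chromosome, on the side away from the centromere, in the mouse build mm10. The choice used position alone and no read count. The outermost model ended within 5 kb of the assembled end, taken as 0.1 Mb before the chromosome length, on 17 of the 19 chromosomes. On chromosome 4 it lay 163 kb and on chromosome 6 it lay 53.7 kb from that point. These distances carry an uncertainty of 5 kb, so a model can lie slightly past the assembled end.

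RNA was sequenced from MEL cells, a mouse erythroleukemia line whose strain is labelled C57BL/6, grown in DMEM with serum in roller bottles. All 6 libraries came from formaldehyde-crosslinked chromatin and were prepared with a strand-specific kit for total RNA. The 3 groups of 2 libraries were input chromatin, chromatin pulled down with masked TH59-DB, the negative control probe (from here on the control capture), and chromatin pulled down with TH59-DB, a telomere-directed probe of the pyrrole-imidazole polyamide class. The study compared them to find RNA held on telomeric chromatin. The cells were an unmodified line with no allele or drug treatment named, and the labels do not say whether a group's libraries came from separate cultures, so the p-values below reflect library-to-library spread, which may be technical.

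A telomere is the repeat-bearing, protein-coated end of a chromosome, and the unique or duplicated DNA just inside it is called subtelomeric. RNA polymerase can start in subtelomeric DNA and run outward into the repeats, which gives the telomeric repeat RNA known as TERRA. Pyrrole-imidazole polyamides are small synthetic molecules that bind chosen sequences in the minor groove of double-stranded DNA, so the RNA recovered with such a probe can include RNA crosslinked near the bound DNA. The genome assembly stops before the telomeric repeats, so a model at an assembled end marks the last bases to which a read could be placed.

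Start-site sequences of 3 named genes that overlapped members within about 100 kb of an end are given as examples. Whether they are typical of the DNA that these members cover was not tested. They come from RefSeq on GRCm38.p6, are written 5′ to 3′ on the strand of the named gene, and carry capitals where the exons of a member model cover the base. C030010L15Rik (chr16:98008584-98008883, minus strand) lay under the model from 97997300 to 98010226, Gm1976 (chr17:94834750-94835049, minus strand) under the model from 94834601 to 94834822, and Gm20939 (chr17:94864651-94864900, plus strand) under the model from 94864737 to 94865011.
C030010L15Rik: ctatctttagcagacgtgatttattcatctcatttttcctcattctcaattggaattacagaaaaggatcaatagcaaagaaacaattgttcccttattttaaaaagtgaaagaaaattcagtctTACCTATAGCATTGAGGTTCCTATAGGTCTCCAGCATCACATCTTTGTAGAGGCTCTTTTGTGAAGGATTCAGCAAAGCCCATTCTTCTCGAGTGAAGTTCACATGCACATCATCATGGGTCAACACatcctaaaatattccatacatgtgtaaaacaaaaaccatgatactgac
Gm1976: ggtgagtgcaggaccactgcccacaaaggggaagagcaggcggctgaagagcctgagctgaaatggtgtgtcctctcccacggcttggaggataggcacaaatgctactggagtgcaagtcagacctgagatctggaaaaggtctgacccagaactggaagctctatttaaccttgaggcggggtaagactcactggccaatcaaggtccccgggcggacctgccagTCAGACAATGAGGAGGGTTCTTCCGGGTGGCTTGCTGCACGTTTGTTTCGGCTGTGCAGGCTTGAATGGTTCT
Gm20939: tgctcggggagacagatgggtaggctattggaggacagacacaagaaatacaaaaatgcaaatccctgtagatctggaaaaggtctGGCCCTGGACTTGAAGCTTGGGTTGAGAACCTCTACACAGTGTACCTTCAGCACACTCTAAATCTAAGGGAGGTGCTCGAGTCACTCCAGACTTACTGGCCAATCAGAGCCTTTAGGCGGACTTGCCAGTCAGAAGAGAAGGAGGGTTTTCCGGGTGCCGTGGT
The exons covered 127 of 300 bases at C030010L15Rik, 73 of 300 at Gm1976 and 164 of 250 at Gm20939. Their G and C content was 35.7%, 56.0% and 50.8%. The telomere repeat unit TTAGGG, searched on both strands, had 0 matches in each. It occurred in 3 of 27 start-site windows within 100 kb of an assembled end (11.1%), in 39 of 334 windows of the last 1.0 Mb (11.7%) and in 3483 of 32851 windows of all genes (10.6%). Most members nearest the ends lie in no gene span, so no start-site window was at hand for them.

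The library totals ran from 1803723 to 3122558 reads, of which 35.7% to 69.2% lay in the models, and levels below are in CPM, reads per 1000000 of the library total. A single model in the span of Zc3h7a held 50.8% of the reads of masked TH59-DB 1 and 2.77% of TH59-DB 2, and 13.4% to 20.8% of the other libraries. Masked TH59-DB 1 listed 4341 models at 0 reads, while no model in TH59-DB 1 had fewer than 5 reads. Because of the latter, TH59-DB 1 lies above 0 for every member, and counts over the members are given for the libraries numbered 2 alone wherever possible. The edgeR fits, mean shares and counts over both libraries do include TH59-DB 1. Whether the deposited models were selected on that library is not given in the sources used here, and the part of such a selection in the results was not tested. Fits without TH59-DB 1 are reported below, but they use the same deposited models. Of the 17 erythroid markers looked up, 6 had a model, with a summed level of 818 and 1131 CPM in the input, against 24.1 and 49.4 CPM for 2 of 11 markers of other blood cells and no model for 4 fibroblast markers.

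Members took a larger part of the TH59-DB libraries than of the others. Their summed reads were 0.104% and 0.161% of the input libraries, 0.156% and 0.205% of the control libraries, and 0.953% and 3.72% of the TH59-DB libraries. The control and TH59-DB libraries did not overlap, and the TH59-DB libraries themselves lay far apart. The means were 0.132% ± 0.0403 in the input, 0.181% ± 0.0340 in the control capture and 2.34% ± 1.96 in TH59-DB (SD, n = 2 each), a ratio of 13.0 against the control capture and 17.7 against the input. With 2 libraries against 2, an exact permutation test (two-sided) cannot give a p below 0.333, so shares were not tested. In these bulk libraries, much RNA in few cells and little RNA in many cannot be told apart.

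A single model on chromosome 2 (182012702 to 182013229) held 42.8% of the members' reads in TH59-DB 1 and 71.5% in TH59-DB 2. Without it the share was 0.545% and 1.06% in TH59-DB, 0.133% and 0.188% in the control capture, and 0.104% and 0.161% in the input. The mean was then 0.804% ± 0.366 in TH59-DB and 0.160% ± 0.0393 in the control capture (SD, n = 2 each), a ratio of 5.01. The groups still did not overlap. The remainder includes the overlapping chromosome 14 end models, whose shared reads count in each of them. Without the loci of the 10 members with most reads, the shares were 0.295% and 0.198% in TH59-DB. They were 0.0435% and 0.0762% in the control capture, a ratio of 4.12.

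Among the members, the excess was largest next to the assembled ends, and beyond 300 kb the summed shares of the groups overlapped. The 64 members under 20 kb from the assembled end summed to 0.000804% and 0.00119% of the input, 0.0461% and 0.0280% of the control capture, and 0.686% and 3.48% of TH59-DB, a ratio of 56.2 between TH59-DB and the control capture. For the 56 members between 20 and 100 kb the shares were 0.00546% and 0.00862% in the input, 0.0122% and 0.0131% in the control capture, and 0.0813% and 0.139% in TH59-DB, a ratio of 8.69. For the 42 members between 100 and 300 kb the ratio was 2.97, with 0.0456% and 0.0296% in TH59-DB against 0.00715% and 0.0182% in the control capture. For the 108 members beyond 300 kb it was 0.926, with 0.140% and 0.0785% in TH59-DB against 0.0910% and 0.145% in the control capture, so the groups overlapped. The ratio, as counted, thus fell from each distance class to the next. The class between 100 and 300 kb includes the overlapping chromosome 2 models from 181870889 and 181871312, whose shared reads count in each of them. They hold a large part of its TH59-DB 2 reads, and its ratio without them was not computed. Without the chromosome 2 end model the class under 20 kb had 0.278% and 0.815% in TH59-DB and 0.0222% and 0.0115% in the control capture. Its ratio of 32.4 was still the highest of the 4 classes. That sum counts the shared reads of the overlapping chromosome 14 end models in each of them, and they hold much of it. The ratio without them was not computed. Past the members, the 310 models at 2 to 5 Mb from the end also had a higher share in TH59-DB, with 1.07% and 2.06% against 0.398% and 0.621% in the control capture and 0.323% and 0.534% in the input, a ratio of 3.07 to the control capture. The 127 models at 1 to 2 Mb had a ratio of 1.01.

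**Figure D1:**
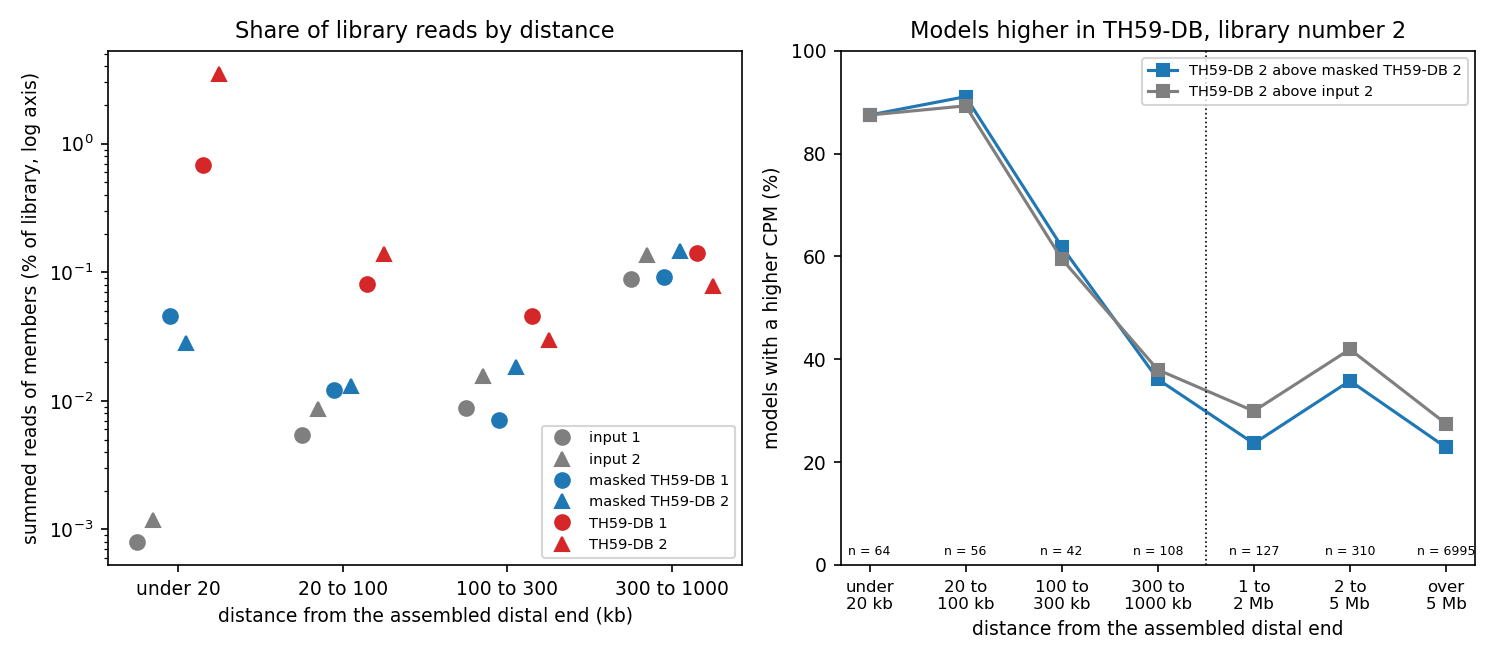
The left panel plots the summed reads of the members as a percentage of each library (log axis) in 4 classes of distance from the assembled distal end, 1 point per library. The right panel plots the percentage of models with more CPM in TH59-DB 2 than in masked TH59-DB 2 or input 2 by distance, with the members left of the dotted line. Against masked TH59-DB 2 it is 87.5% under 20 kb, 91.1% at 20 to 100 kb, 61.9% at 100 to 300 kb and 36.1% beyond, and 22.9% to 35.8% past the members.

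Models were also counted one by one in the libraries numbered 2. TH59-DB 2 had more CPM than masked TH59-DB 2 in 172 of all 270 members (63.7%), where 25.0% of all 7959 models did, and less in 43, while 55 had 0 reads in both. Under 20 kb the higher members numbered 56 of 64, with 0 lower and 8 at 0 in both. Between 20 and 100 kb they were 51 of 56 with 0 lower, between 100 and 300 kb 26 of 42 with 5 lower, and beyond 300 kb 39 of 108 with 38 lower. Past the members, 30 of 127 models at 1 to 2 Mb (23.6%), 111 of 310 at 2 to 5 Mb (35.8%) and 1599 of 6995 at over 5 Mb (22.9%) from the end were higher in TH59-DB 2, so the share at 2 to 5 Mb was close to the 36.1% of the members beyond 300 kb. Against input 2 the higher members were again 172 of 270 (63.7%), beside 29.7% of all models, with 45 lower; both counts share the same TH59-DB library.

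The separation also held when all 4 libraries were asked for. Both TH59-DB libraries lay above both masked libraries in 165 members (61.1%; 21.8% of all models), and above both input libraries in 170 (63.0%; 25.5% of all models). In 114 members (42.2%) the input and masked libraries together had 0 reads, against 13.7% of all models. A count of 0 allows up to 3 reads, which is 0.961 to 1.52 CPM in the input and masked libraries. TH59-DB 1 takes part in the first pair of counts and had 8 reads or more in every member.

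**Figure D2:**
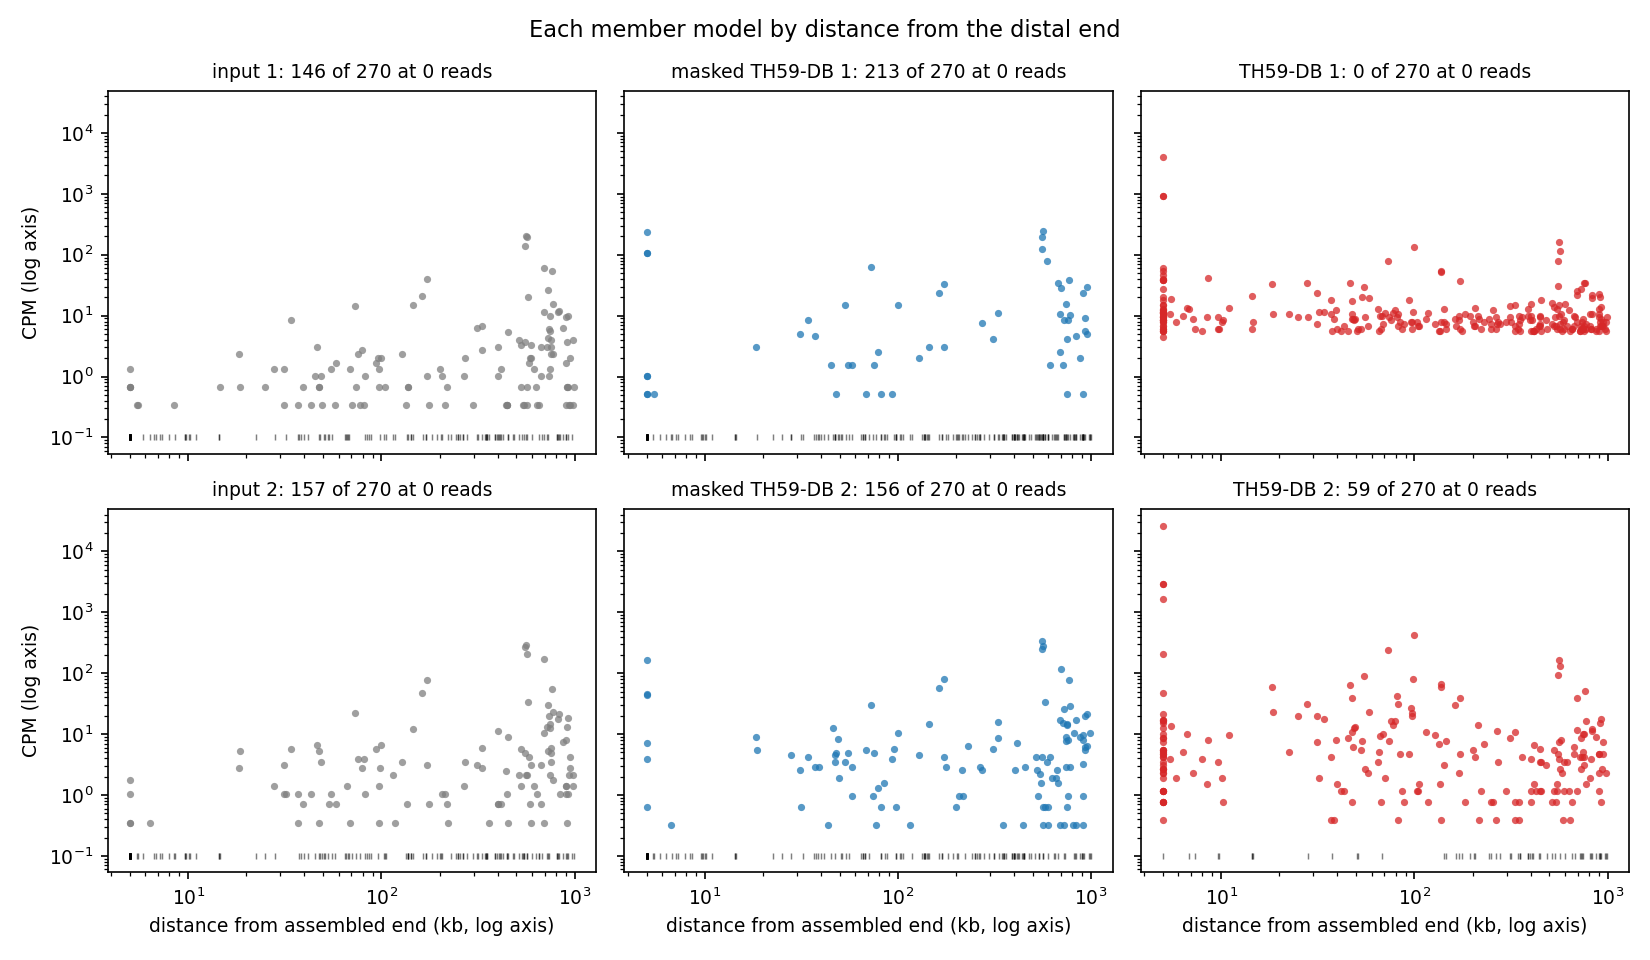
Each panel is 1 library and each point 1 member model, with its distance from the assembled end (kb, log axis, less than 5 kb drawn at 5 kb) against its CPM (log axis); members with 0 reads are marked at the foot of the panel and counted in its title. The input has 146 and 157 members at 0, the control capture 213 and 156, and TH59-DB 0 and 59, and the highest points lie near the end in the TH59-DB panels.

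Gene annotation divided the members unevenly. The 120 members in no gene span held 0.00419% and 0.00441% of the input, 0.0497% and 0.0338% of the control capture, and 0.739% and 3.50% of TH59-DB. The 123 members in spans of 76 protein-coding genes held 0.0958% and 0.151%, 0.0983% and 0.164%, and 0.174% and 0.162% in the same order, so nearly all of the members' input reads were theirs. The 27 members in spans of noncoding genes or pseudogenes held 0.00392% and 0.00529%, 0.00847% and 0.00705%, and 0.0403% and 0.0562%. Distance and annotation went together, since 77 of the 120 members outside gene spans, but only 29 of the 123 in protein-coding spans, lay within 100 kb of an end. Within those 100 kb, the protein-coding members were also higher in TH59-DB, with a ratio to the control capture of 19.2 (0.0440% and 0.0767% against 0.00228% and 0.00400%). Beyond 100 kb the 94 protein-coding members had a ratio of 0.842, and the groups overlapped. There the 43 members in no gene span had a ratio of 12.7 (0.0453% and 0.0184% against 0.00193% and 0.00311%), and the 13 in other gene spans 19.3 (0.0111% and 0.00398% against 0.000203% and 0.000577%), both without overlap. The higher TH59-DB share beyond 100 kb was thus in members outside protein-coding spans. Those in no gene span include the overlapping chromosome 2 models from 181870889 and 181871312, whose shared reads count in each of them. This locus holds most of their reads in TH59-DB 2 beyond 100 kb, and the ratio without it was not computed.

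TH59-DB was set against the control capture to ask what the probe for telomeres recovered that its masked form did not. Counts were tested with edgeR's quasi-likelihood F-test over all models that passed a filter on low counts, with Benjamini-Hochberg adjustment over those 5385 models, and a model was called at an adjusted p under 0.05. Only 134 of the 270 members passed the filter. A member near 0 in the other groups passes only through TH59-DB, so the counts and medians over the tested members are descriptions. So are the adjusted p-values of members with 0 reads in every input and masked library, for which a fall could not have been found. In this comparison 8 members at 7 loci rose and 0 fell, where 1.41% of all tested models rose and 0.0% fell. Before adjustment, 68 members had a higher and 1 a lower level at p under 0.05, where 8.26% and 1.69% of all tested models did. By DESeq2 43 rose and 0 fell, where 4.92% and 0.0186% of all models did. The median log2 fold change was 3.47 over the tested members and 0.30 over all tested models. Of the 8, 4 lay under 20 kb, 2 between 20 and 100 kb and 2 between 100 and 300 kb from the end. With a filter on the mean count in place of the main one, 6 of the 8 calls were lost, at adjusted p from 0.0562 (chromosome 11) to 0.0810 (chromosome 7), and 3 of those 6 were also lost with 1 model per locus, at 0.0533 to 0.0542.

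The comparison of TH59-DB with the input asks which RNAs the capture holds beyond their level on chromatin as a whole. Here 17 members at 15 loci rose and 0 fell, where 3.58% of all tested models rose and 0.0371% fell. The 17 include the 8 called against the control capture; both comparisons use the same TH59-DB libraries. Before adjustment, 66 were higher and 0 lower at p under 0.05, where 8.86% and 5.14% of all tested models were. By DESeq2 51 rose and 0 fell, where 6.78% and 0.52% of all models did. The median log2 fold change was 3.80 over the tested members and 0.03 over all tested models. By distance, 13 lay under 20 kb, 2 between 20 and 100 kb and 2 between 100 and 300 kb.

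**Figure D3:**
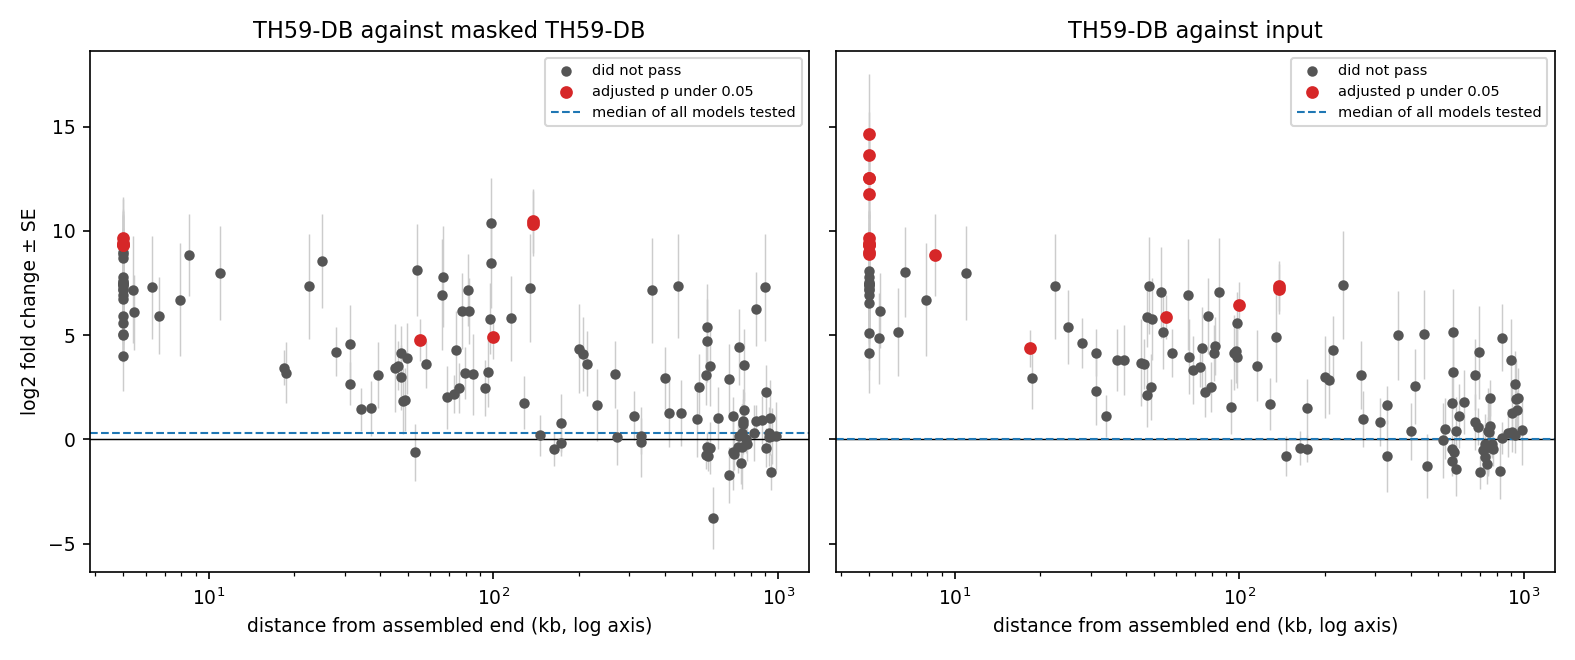
The panels plot the log2 fold change with its standard error (edgeR) of every tested member against its distance from the assembled end (kb, log axis, less than 5 kb drawn at 5 kb). The left panel is TH59-DB against the control capture and the right panel TH59-DB against input. Called members lie above 0 in each panel (8 and 17).

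The outermost member of each autosome shows the end-most placed RNA chromosome by chromosome. None of the 19 was at 0 reads in TH59-DB 2, whereas 12 were at 0 in both masked libraries and 14 at 0 in both input libraries. In 18 of the 19, both TH59-DB libraries lay above all 4 input and masked libraries. This count includes TH59-DB 1, which had 5 reads or more in every model. Of all models, 21.8% had both TH59-DB libraries above both masked libraries and 25.5% above both input libraries. In 13.7% the input and masked libraries together had 0 reads. The exception among the outermost members was chromosome 4, whose outermost member lies in Samd11, 163 kb inside. Of the 15 outermost members that could be tested, 3 passed against the control capture and 8 against the input. Those on chromosomes 2, 19 and 5, which did not pass against the control capture, passed it in 9, 10 and 11 of 15 alternative fits. Those on chromosomes 13, 16 and 14, which did not pass either, did so in 10, 9 and 6 of 15, and the others not called in at most 4. The 3 that passed, on chromosomes 7, 11 and 17, lost the call in 4, 3 and 3 of 15.

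The outermost models of chromosomes 2 and 14 carried the most reads. On chromosome 2 (182012702 to 182013229, no gene span) the input had 4 and 5 reads, and there were 471 and 514 in the control capture, and 7357 and 68895 in TH59-DB. Every masked library lay above both inputs, and every TH59-DB library above both masked libraries. Its mean level was 15344 CPM ± 15932 in TH59-DB and 202 ± 52.6 in the control capture (SD, n = 2 each), a 76.0-fold difference with a log2 fold change of 6.75 and SE of 1.58, which did not pass (adjusted p = 0.0704). Against the input it rose 9928-fold (log2 fold change 13.65, SE 2.08, adjusted p = 0.00385).

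On chromosome 14 (124801749 to 124801950, no gene span) the input had 2 and 0 reads, and there were 212 and 140 in the control capture, and 1668 and 7622 in TH59-DB. The order of the groups was as on chromosome 2, with no overlap. The difference from the control capture was 25.4-fold and did not pass (adjusted p = 0.105), and that from the input was 5774-fold and passed (adjusted p = 0.00385). A second model from 124799247 overlaps it, shares its reads and also passed against the input.

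Chromosomes 19 and 5 followed with fewer reads. The chromosome 19 model (61331145 to 61331419, no gene span) had 0 and 0 reads in the input, 0 and 12 in the control capture, and 108 and 4298 in TH59-DB. It was at least 837-fold higher than the input (adjusted p = 0.0173) and 448-fold higher than the control capture, which did not pass (adjusted p = 0.0654). A bound written "at least" is set against 3 reads per library where a group had 0 in both. The chromosome 5 model (151734069 to 151734697, no gene span) had 0 and 0, 2 and 22, and 70 and 532 reads. It was 30.3-fold higher than the control capture without passing (adjusted p = 0.0652) and at least 119-fold higher than the input, which passed (adjusted p = 0.00633). The calls against the input on both chromosomes were lost without TH59-DB 2, where the adjusted p was 0.0525 for chromosome 19 and 0.132 for chromosome 5.

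The 3 outermost members that rose against the control capture were on chromosomes 7, 11 and 17, each with 0 reads in all input and masked libraries. They passed the filter on low counts only through TH59-DB, so a fall could not have been found and their adjusted p-values are descriptions. On chromosome 7 (145340841 to 145341015) TH59-DB had 22 and 121 reads, at least 23.7-fold above the control capture (adjusted p = 0.0499). DESeq2 did not call it against the control capture (adjusted p = 0.432) or the input (adjusted p = 0.309). On chromosome 11 (121981510 to 121982546) it had 72 and 55 reads, at least 24.6-fold above (adjusted p = 0.0340). On chromosome 17 (94886457 to 94886924) it had 97 and 44 reads, at least 28.5-fold above (adjusted p = 0.0338). All 3 models lie in no gene span and also rose against the input, at least 28.7-fold, 29.8-fold and 34.4-fold (adjusted p = 0.0236, 0.0119 and 0.0112). None of the calls against the control capture held without TH59-DB 2 (adjusted p = 0.244, 0.244 and 0.177), and those on chromosomes 11 and 17 were also lost without TH59-DB 1 (adjusted p = 0.132 and 0.217). Against the input the same models lost their calls without TH59-DB 2 (adjusted p = 0.253, 0.182 and 0.0841). Those on chromosomes 11 and 17 were also lost without TH59-DB 1 (0.0974 and 0.153), input 1 (0.0571 and 0.0527) or input 2 (0.0842 and 0.0792).

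The remaining outermost members had few reads. The chromosome 13 model (120319447 to 120320259) had 50 and 43 reads in TH59-DB and 0 elsewhere, and passed against the input (adjusted p = 0.0327) but not against the control capture (adjusted p = 0.0611). Its call was lost without input 1, input 2, TH59-DB 1 or TH59-DB 2 (adjusted p = 0.199, 0.256, 0.160 and 0.253). The chromosome 16 model (98106782 to 98107396) had 69 and 19 reads in TH59-DB and 1 in all other libraries together, with adjusted p = 0.0744 against the control capture and 0.0786 against the input. On chromosomes 1, 3, 6, 8, 9, 10, 12, 15 and 18 the TH59-DB reads ran from 3 to 40 per library, and the input and masked libraries had at most 2 each. Of these 9, 5 were tested and none passed in either comparison.

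**Figure D4:**
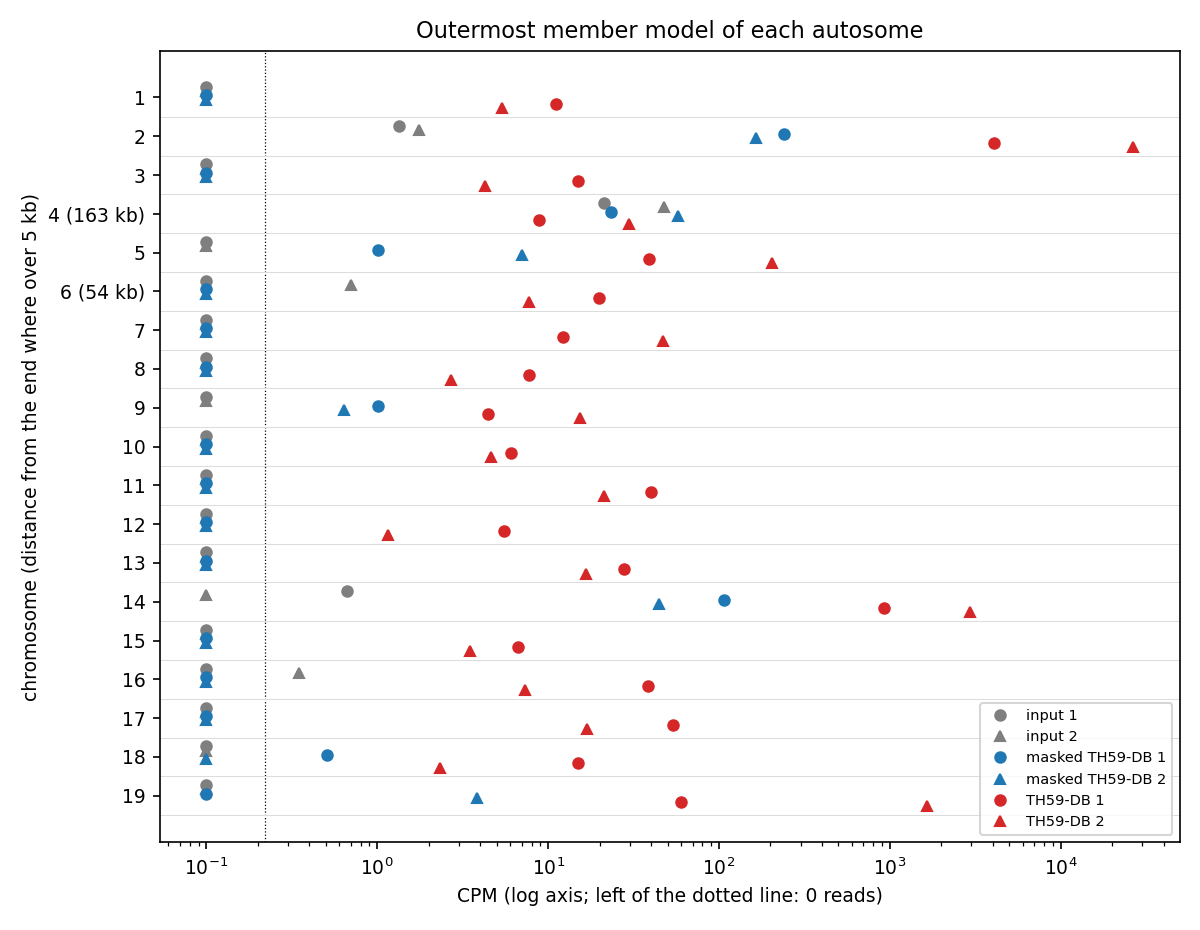
Each line is 1 autosome and each point 1 library, with the CPM of its outermost member model on a log axis; points left of the dotted line had 0 reads. TH59-DB points lie to the right of the input and masked points on every autosome but chromosome 4, and reach 26610 CPM on chromosome 2.

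Other called members lay a little further in. On chromosome 13, 0.893 kb inside the assembled end, the model from 120318425 to 120319107 had 85 and 44 reads in TH59-DB and 0 in all other libraries, at least 25.8-fold above the control capture (adjusted p = 0.0369) and 31.2-fold above the input (adjusted p = 0.0131). Next to it lay 2 members in the span of Tcstv3, a gene of a family known for activity in early embryos and embryonic stem cells. They had 41 and 19 reads in TH59-DB and 0 elsewhere. Only 1 of them was tested, and it did not pass. The call of the model from 120318425 against the control capture was lost when either TH59-DB library was left out. The call against the input was lost without TH59-DB 1 (0.153), TH59-DB 2 (0.130), input 1 (0.0692) or input 2 (0.103).

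On chromosome 2, 138 kb inside, the model from 181870889 to 181872372 had 2 and 0 reads in the input, 0 and 0 in the control capture, and 97 and 170 in TH59-DB. Its TH59-DB libraries lay close together, at 53.8 and 65.7 CPM. It rose at least 48.1-fold against the control capture (adjusted p = 0.0197) and 178-fold against the input (pooled ratio 177, 95% exact interval of the pooled reads 48.7 to 1470, for counting error only; adjusted p = 0.00700). An overlapping model that starts at 181871312 shares these reads and rose too. Without TH59-DB 2 the adjusted p of the longer model was 0.172 and 0.219, and that of the shorter 0.209 and 0.242; the shorter also lost its call against the input without input 2 (0.0621). They lie in no gene span, between the outermost model and the genes further in.

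The ends of chromosomes 16 and 17 had members in the spans of the protein-coding gene B230307C23Rik and of the long noncoding genes A630089N07Rik and Gm1976, as well as outside gene spans. On chromosome 16 the model from 97997300 to 98010226, in the span of B230307C23Rik and over the printed C030010L15Rik start site, had 6 and 19 reads in the input, 29 and 33 in the control capture, and 240 and 1094 in TH59-DB. The groups did not overlap, and the model rose 22.0-fold against the control capture (log2 fold change 4.90, SE 1.03, adjusted p = 0.0479) and 64.1-fold against the input (log2 fold change 6.42, SE 1.11, adjusted p = 0.00700). Without TH59-DB 2 the first of these had an adjusted p of 0.244, without masked TH59-DB 1 of 0.0568, and without masked TH59-DB 2 of 0.0562. The second had an adjusted p of 0.0689 without input 1. All 26 members in the last 100 kb of chromosome 16 together had 81 and 133, 63 and 226, and 828 and 2126 reads, of which the 6 in B230307C23Rik gave 333 and 1495 in TH59-DB and the 8 in A630089N07Rik 235 and 365. Of the 8 in A630089N07Rik, 7 were tested and none passed.

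On chromosome 17 the model from 94834601 to 94834822, over the printed Gm1976 start site 55.2 kb inside, had 4 and 3 reads in the input, 3 and 15 in the control capture, and 54 and 231 in TH59-DB. It rose 18.8-fold against the control capture (log2 fold change 4.77, SE 0.99, adjusted p = 0.0479) and 49.8-fold against the input (log2 fold change 5.86, SE 1.06, adjusted p = 0.00931). Without TH59-DB 2 these had an adjusted p of 0.576 and 0.397, and without input 2 the second had 0.0820. The 5 members in Gm1976 had 58 and 75, 133 and 116, and 254 and 962 reads, so the other 4 held most of the reads outside TH59-DB. The model over the Gm20939 start site had 2 and 0 reads in the input, 0 and 0 in the control capture, and 17 and 51 in TH59-DB, and did not pass (adjusted p = 0.123 and 0.177). All 15 members in the last 100 kb of chromosome 17 had 61 and 76, 134 and 116, and 506 and 1149 reads.

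Members in 3 further gene spans within 100 kb of an end had few reads outside TH59-DB. The 5 members in Wls, a gene for a carrier that takes Wnt proteins to the cell surface, end 1.30 to 14.4 kb from the end of chromosome 3 and had 107 and 15 reads in TH59-DB and 0 in every other library. The 4 in Gm21814 on chromosome 6, 53.7 to 67.4 kb from the end, had 87 and 38 reads in TH59-DB, and 2 in all other libraries together. The 3 in 2610044O15Rik8 on chromosome 8, 70.8 to 81.9 kb from the end, had 49 and 194 reads in TH59-DB against 5 and 14 in the input and 1 and 2 in the control capture. In Wls 1 member was tested, in Gm21814 1 and in 2610044O15Rik8 2, and none passed in either comparison. Among other spans in this zone, Gm14496, Ftl1-ps2 and Gm45871 also had few reads outside TH59-DB. Some had more. Those in Gm32856 had 6 and 21 reads in the input, 10 and 25 in the control capture, and 83 and 117 in TH59-DB. In the same order, Gm20783 had 7 and 11, 3 and 15, and 15 and 43. Tmx3 had 4 and 1, 1 and 17, and 13 and 26.

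The other members called against the input only had few reads outside TH59-DB. On chromosome 10 the model from 130542393 to 130571661 had 7 and 8 reads in the input, 6 and 28 in the control capture, and 59 and 156 in TH59-DB. It rose 18.1-fold against the input (log2 fold change 4.38, SE 0.89, adjusted p = 0.0180), and its 7.74-fold difference from the control capture did not pass (adjusted p = 0.0806). The model from 151732422 on chromosome 5 had 70 and 33 reads in TH59-DB and 0 elsewhere (adjusted p = 0.0290 against the input), and that from 124491264 on chromosome 9 had 76 and 21 and 0 elsewhere (adjusted p = 0.0458). The call on chromosome 10 was lost without input 1, input 2 or TH59-DB 2 (adjusted p = 0.245, 0.323 and 0.468). Without input 1, input 2, TH59-DB 1 or TH59-DB 2 the calls were lost on chromosome 5 (0.196, 0.253, 0.231 and 0.189) and on chromosome 9 (0.332, 0.392, 0.357 and 0.163), and on chromosome 9 also with DESeq2 (0.399), the mean-count filter (0.0535) and 1 model per locus (0.0522).

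The comparison of the control capture with the input asks what the control capture itself holds. Of the 134 members tested, 0 rose and 0 fell by edgeR, where 0.26% of all tested models rose and 0.0% fell. Before adjustment, 9 were higher and 1 lower at p under 0.05, where 3.86% and 2.95% of all tested models were. By DESeq2 6 rose and 0 fell, where 1.75% and 0.334% of all models did. The median log2 fold change was 0.00 over the members and -0.26 over all models. Over all 270 members, masked TH59-DB 2 had more CPM than input 2 in 79 (29.3%), beside 45.5% of all models, and both masked libraries lay above both inputs in 21 (7.78%), beside 11.1%. Yet under 20 kb the masked share was 37.1 times the input share. The chromosome 2 and 14 end models made most of it, being 131-fold and 227-fold higher in the control capture, with adjusted p = 0.157 and 0.127.

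Members with the most input reads were gene-span models far from the ends, and none of them passed in a TH59-DB comparison. The 3 in Eif3a, a subunit of the translation initiation factor eIF3 on chromosome 19, summed to 537 and 773 CPM in the input, 569 and 869 in the control capture, and 360 and 391 in TH59-DB. TH59-DB lay below both other groups in both libraries. The model in Hnrnpa1, an RNA-binding protein known to bind telomeric repeat RNA, had 179 and 486 reads in the input, 57 and 367 in the control capture, and 40 and 101 in TH59-DB. Its TH59-DB level was 0.418 of the control capture (log2 fold change -0.71, SE 0.78, adjusted p = 0.937) and 0.266 of the input (-1.58, SE 0.79, adjusted p = 0.426).

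The model in Nfe2, an erythroid transcription factor, had 34 and 30 reads in the input, 5 and 54 in the control capture, and 45 and 30 in TH59-DB, and the groups overlapped (adjusted p = 0.861 and 0.906). Cdk11b, a cyclin-dependent kinase, had 69.7 and 78.8 CPM in the input, 49.2 and 105 in the control capture, and 42.1 and 66.8 in TH59-DB over its 2 members. The models in Noc2l, a nucleolar protein, in Samd11, in Narf and in Aurkaip1, a mitochondrial ribosome protein, had adjusted p from 0.729 to 0.980 in both TH59-DB comparisons. Hnrnpa1 is also the only member on a list of 27 genes of telomere biology. Of that list 10 had a model and 9 were tested, 1 rose in each TH59-DB comparison (Terc, the telomerase RNA, which lies away from these ends), and 0 fell; of the 6 erythroid genes tested, 0 rose or fell in any of these comparisons.

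**Figure D5:**
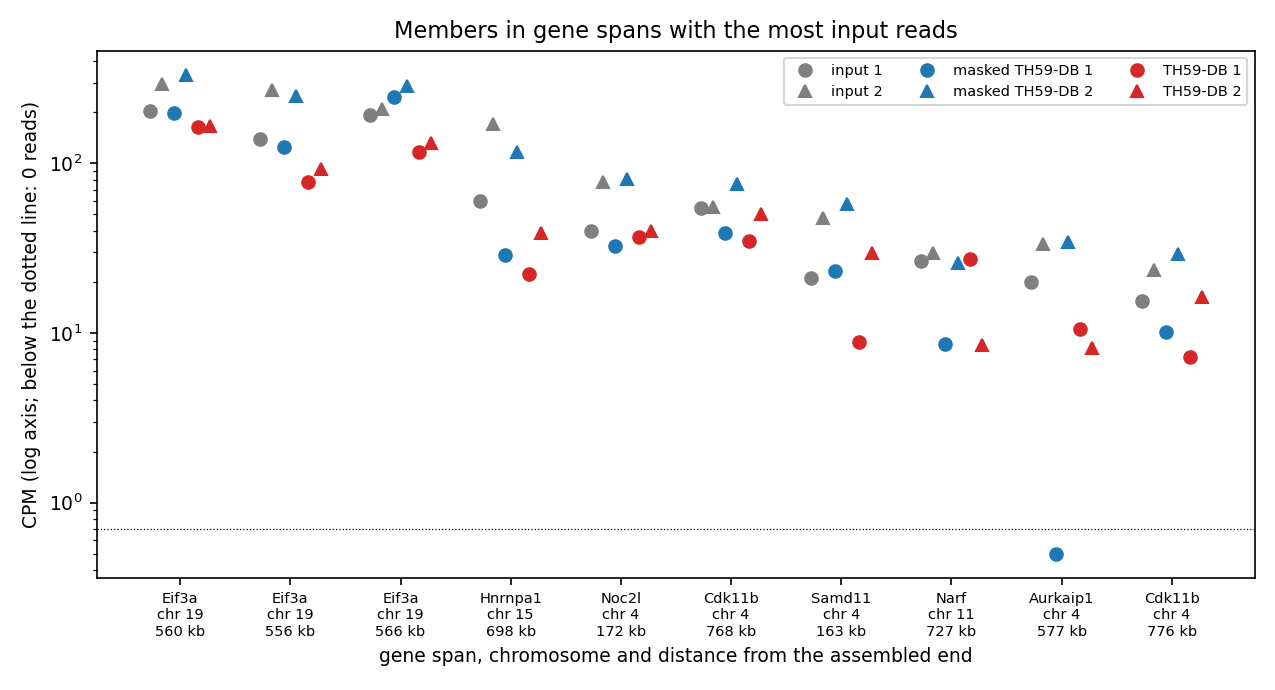
Each point is the CPM of 1 library (log axis) for the members in gene spans with the most input reads, labelled by gene, chromosome and distance from the assembled end; a point below the dotted line had 0 reads. The TH59-DB points lie mostly among or below those of the input and the control capture, in contrast to the end-most members.

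At the inner edge of the window, the nearest member inside lay in Csnk1d on chromosome 11, 4.91 kb within the limit, with 2 and 0 reads in the input, 0 and 0 in the control capture and 17 and 0 in TH59-DB. The nearest model outside lay in Limd1 on chromosome 9, with 0 and 2, 0 and 3, and 15 and 0 reads. Both had reads in TH59-DB 1 and none in TH59-DB 2.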

How the data were processed

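The deposited files hold whole-number counts of reads per assembled transcript model, and FPKM values that the authors computed from count, model length and a library total. Per the submitters' processing notes, cutadapt, HISAT2, Cufflinks and featureCounts and the build mm10 were used; their versions and settings, the strand setting among them, are not given in the sources used here. Without the strand setting, reads of a gene and its antisense partner cannot be told apart, and reads of overlapping models can be shared (6 members overlap another). What the recovered totals count is not stated.

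The unnumbered and the second set of files were joined on all exons (261 members) or on first start and length (9 members). Library totals were recovered from count, length and FPKM, and CPM used them. Gene spans came from RefSeq on GRCm38.p6, at 50% of a model's bases, so a model in a span need not be that gene's transcript. Sequence came only from RefSeq start-site windows of that build. No pair of libraries agreed within sampling noise (chi-square per degree of freedom 55.2 to 119).

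Counts were fitted with edgeR 4.0.16 in R 4.3.3 (filterByExpr, TMM factors, robust quasi-likelihood, all 6 libraries, group term, biological coefficient of variation 0.702), checked on simulated data. All tests were two-sided and adjusted p-values are Benjamini-Hochberg over all 5385 models tested. Fold values are ratios of mean CPM, and log2 fold changes are fitted with standard error (SE). Intervals and the 3-read floor cover counting error only, since the reads carry no molecular identifiers. Alternatives used DESeq2 1.42.0, other normalizations, filters, windows, a library block and left-out libraries. Named members were the outermost per autosome, up to 10 called members by adjusted p in each TH59-DB comparison, the 10 with the highest mean CPM, the 10 in protein-coding spans with the highest input CPM, and those in telomere or erythroid list genes. The 3 remaining members called against the input, the gene spans near the ends and those at the window's edge were added after their values were seen. The members and lists were chosen with earlier results of these data known.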

Additional observations from a re-analysis of the deposited data

How the results depend on the processing

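Counts of called members depended strongly on the processing. Members higher in TH59-DB than in masked TH59-DB (8 as reported) numbered 21 with DESeq2 size factors, 43 with DESeq2, 20 with model sums as library size, 29 with no filter, 2 with a filter on the mean count, 16 with only the 2 groups compared and 4 with 1 model per locus; leaving out 1 library gave 1 (without TH59-DB 2) to 77 (without masked TH59-DB 2, where 1479 of all 7190 models tested, 20.6%, were also higher and their median log2 fold change was 5.10). With no filter 1 member was lower, as were 2 of all 7959 models. With 1 library left out, members were lower most often without masked TH59-DB 2, and so were all models. Against the input (17 as reported) the numbers were 26 with DESeq2 size factors, 51 with DESeq2, 35 with no filter and 60 with only the 2 groups compared, and 4 (without TH59-DB 2) to 92 (without masked TH59-DB 2, where 9.58% of all models were) with 1 library left out. For masked TH59-DB against the input, higher members (0 as reported) were 2 with DESeq2 size factors, 6 with DESeq2, 2 with model sums, 6 with no filter, 1 with only the 2 groups, and 0 to 10 with 1 library left out; lower members were 0 to 10. With 1 library left out, the lone library of its group is assumed to vary like the others. Without masked TH59-DB 2, the median log2 fold change of all models in masked TH59-DB against the input was -1.53. Of all models tested, the share higher in masked TH59-DB than in the input was 1.06% with DESeq2 size factors and 1.75% with DESeq2. It was 0.909% with model sums, 1.16% with no filter and 0.374% with only the 2 groups. DESeq2 size factors moved the median log2 fold change of all models from 0.30 to 0.51 against masked TH59-DB and from 0.03 to 0.40 against the input, and that of the members from 3.47 to 3.67 and from 3.80 to 4.16. The library totals without the 2 largest models changed none of these counts by over 1.5 times. Of all models tested, 3.10% were higher in TH59-DB than in masked TH59-DB with DESeq2 size factors, 4.92% with DESeq2 and 2.82% with model sums. The share was 2.56% with no filter, 0.717% with the mean-count filter, 2.65% with only the 2 groups and 0.947% with 1 model per locus. Against the input it was 4.62% with DESeq2 size factors, 6.78% with DESeq2, 3.61% with no filter and 8.96% with only the 2 groups.

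With the library number as a replicate block, 25 members were higher and 1 lower in TH59-DB against masked TH59-DB, 25 higher against the input, and 5 higher in masked TH59-DB against the input. Of all 5385 models tested, 3.45%, 4.55% and 1.63% were higher in the same order, and 5, 118 and 18 models were lower. The numbers do not pair the samples by the labels: deviations of same-numbered libraries correlated at 0.150 (input and masked), 0.120 (input and TH59-DB) and 0.0369 (masked and TH59-DB).

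Each of the 8 calls against masked TH59-DB was lost in at least 1 alternative (adjusted p from 5.95e-08 to 0.576 over all of them), and so were 14 of the 17 calls against the input (3.49e-33 to 0.468); the chromosome 2 end model and both chromosome 14 models kept theirs in every alternative that tested them. Of the named members not called, 14 of 27 passed against masked TH59-DB in at least 1 alternative, and 7 of 18 against the input. The mean share of library reads in members moved with the denominator, and in the input and masked TH59-DB also with the window. In the input (0.132%) it was 0.278% of model sums, 0.0236% in a window of 0.6 Mb and 0.475% in a window of 2.1 Mb. In masked TH59-DB (0.181%) it was 0.351% of model sums, 0.316% of totals without the 2 largest models, 0.0653% at 0.6 Mb and 0.361% at 2.1 Mb. In TH59-DB (2.34%) it was 6.02% of model sums, 2.25% at 0.6 Mb and 2.52% at 2.1 Mb. The ratios between TH59-DB and the other groups therefore depend on the window.

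Among the named members, log2 fold changes that changed sign were those of input-abundant genes not called in the reported fit. Without TH59-DB 1 they became, against masked TH59-DB and the input, 0.69 and 0.59 (Cdk11b, model from 155626780), 0.71 and 0.68 (Cdk11b, from 155634180), 0.43 and 0.33 (Noc2l), 0.49 and 0.70 (Samd11) and 0.18 and 0.26 (Eif3a, from 60766335). Against masked TH59-DB alone they became 0.14 (Aurkaip1), -0.052 (Narf) and 0.13 (Hnrnpa1), and against the input 0.19 (Eif3a, from 60762150). Without masked TH59-DB 2, Cdk11b from 155626780 had 0.15 and Aurkaip1 7.55, which passed (adjusted p = 0.00944). Aurkaip1 had 0.25 with the replicate block. Cdk11b from 155634180 had, against masked TH59-DB, 0.13 with DESeq2 size factors, 0.13 with DESeq2, 0.046 with model sums, 0.030 with the mean-count filter, 0.016 with only the 2 groups and 0.024 with 1 model per locus, and against the input 0.16, 0.16 and 0.080 with the first 3 of these and 0.21 without input 1. Samd11 had 0.061 against the input without input 2. Narf had, against masked TH59-DB, -0.059 with no filter, -0.044 without input 1, -0.034 without input 2 and -0.37 without masked TH59-DB 1. The other extreme with 1 library left out, mostly without TH59-DB 2, was, against masked TH59-DB and the input, -1.81 and -2.18 (Cdk11b, from 155626780), -1.11 and -1.47 (Cdk11b, from 155634180), -1.01 and -1.41 (Noc2l), -2.56 and -2.65 (Samd11) and -1.10 and -1.37 (Eif3a, from 60766335); it was -1.41 (Aurkaip1), 0.36 (Narf) and -2.06 (Hnrnpa1) against masked TH59-DB and -1.60 (Eif3a, from 60762150) against the input. The cause of these changes was not tested. Depth limits the members near 0: a single read was up to 0.554 CPM.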
